A study of Mus musculus with 144 samples.

Results

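The transcripts examined were those of 10 coagulation and fibrinolysis genes that hepatocytes express, F2, F5, F7, F9, F10, F11, F12, F13b, Proc and Plg, out of 55359 genes listed in the count files, of which 37748 had at least 1 read pair in any library. The genes were chosen by name, as a list of coagulation factors, and not by their counts, although earlier results of these data were known. RNA-Seq was performed on primary hepatocytes from male mice of 28 days, labelled WT (C57BL/6NCrl) or PkmΔDRE, a line in which an intronic dioxin response element (DRE, a DNA site bound by the aryl hydrocarbon receptor, AHR) of the pyruvate kinase gene Pkm is deleted in the whole animal. Cells received 10 nM TCDD, an AHR ligand, or DMSO vehicle, and were harvested in early hours (2, 4, 8 or 12 h) or in late hours (daily from 24 to 120 h), with 4 libraries in each of the 36 groups. The medium of every group, vehicle included, contained dexamethasone. The labels do not say whether the 4 libraries of a group came from separate animals or isolations, so p-values measure the spread between these libraries, which may be technical.

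Liver cells secrete most clotting factors as inactive precursors. In the cascade, factor XII and factor XI of the contact arm lead through factor IX to factor X. Factor VII with tissue factor also acts on factor X directly. Factor X, with its cofactor factor V, turns prothrombin into thrombin, the enzyme that cuts fibrinogen to fibrin. Factor XIII, with the carrier subunit encoded by F13b, cross-links fibrin, protein C (Proc) inactivates factor V, and plasmin, made from plasminogen (Plg), dissolves the clot, while prothrombin and factors VII, IX and X, like protein C, depend on vitamin K.

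The 10 genes lie on 7 chromosomes, with F7, F10 and F11 on chromosome 8 and F5 and F13b on chromosome 1. Their longest transcripts ranged in GC content from 39% for F9 to 58.5% for F12. The 4 genes under 50% were F9, F13b (41.4%), F5 (46.2%) and F11 (46.5%), and the other 6 were Plg and F10 (52% each), F2 (53.4%), F7 (55%), Proc (56.6%) and F12 (58.5%). Reads were counted without regard to strand, and 11.3% of the exon bases of Plg overlap those of Slc22a3 and 3.53% of those of F5 overlap a predicted gene, so pairs in these stretches could not be assigned with certainty.

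RefSeq promoters on the GRCm38.p6 build matched 8 of the 10 genes by symbol. The 250 bases before the start site are shown for the 4 genes of low GC content, which form the group that moved apart from the rest below, and 3 of them held one of the 4 motifs searched on both strands. F9 lies at chrX:59999214-59999463 on the plus strand, F13b at chr1:139501457-139501706 on the plus strand, F5 at chr1:164151585-164151834 on the plus strand and F11 at chr8:45262032-45262281 on the minus strand. Capitals mark a match.

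F9: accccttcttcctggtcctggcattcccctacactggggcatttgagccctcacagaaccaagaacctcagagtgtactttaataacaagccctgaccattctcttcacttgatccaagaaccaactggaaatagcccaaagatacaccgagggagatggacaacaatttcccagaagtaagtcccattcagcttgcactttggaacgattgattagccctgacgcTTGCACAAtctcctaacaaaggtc
F13b: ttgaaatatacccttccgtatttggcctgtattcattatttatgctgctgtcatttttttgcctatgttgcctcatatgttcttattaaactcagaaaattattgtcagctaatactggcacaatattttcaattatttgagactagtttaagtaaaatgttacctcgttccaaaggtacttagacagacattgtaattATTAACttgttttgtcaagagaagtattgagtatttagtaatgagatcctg
F5: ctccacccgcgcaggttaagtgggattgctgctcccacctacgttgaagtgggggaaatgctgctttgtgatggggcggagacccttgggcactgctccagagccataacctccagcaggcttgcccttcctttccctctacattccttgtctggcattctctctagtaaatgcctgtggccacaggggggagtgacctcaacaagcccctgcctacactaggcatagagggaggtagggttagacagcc
F11: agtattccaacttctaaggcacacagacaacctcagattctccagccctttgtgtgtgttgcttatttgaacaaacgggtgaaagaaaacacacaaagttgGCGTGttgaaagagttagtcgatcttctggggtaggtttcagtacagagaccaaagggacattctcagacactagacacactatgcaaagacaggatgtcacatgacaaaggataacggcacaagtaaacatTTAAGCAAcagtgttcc

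The letters GCGTG, the core of a DRE, were found in 1 of the 8 promoters, that of F11, with the first base 149 bases before the start, against 28.2% of the 32851 mouse promoters of this length. A C/EBP-type sequence, TTGCNNAA, was found in F9, 24 bases before the start, and on the opposite strand in F11, 17 bases before the start, against 9.56% of all promoters. A half-site of HNF1, GTTAAT, was found on the opposite strand in F13b, 51 bases before the start, against 6.43%, and that of HNF4, AAAGTCC, in none of the 8, against 3.58%. No 2 matches overlapped. A match is a stretch of letters and not an observed binding site.

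Counts on genes ran from 13588848 to 30719161 pairs per library, with a median of 18011825, and the lowest count of a member in a library was 19 pairs, that of F13b at 0.703 CPM (pairs scaled to a common library size). Several libraries went against their labels. Pkm, the targeted gene, was at 37.8 to 81.5 CPM in vehicle and 109.2 to 169 CPM with TCDD at 8 h in the libraries labelled PkmΔDRE (log2 change 1.24, adjusted p = 0.128, edgeR quasi-likelihood test with Benjamini-Hochberg adjustment), while in those labelled WT it changed by -0.49 (adjusted p = 0.123) at 8 h and fell by 0.73 (adjusted p = 0.00376) at 96 h, so groups are named by label only. The PkmΔDRE libraries of 12 and 48 h were likewise higher with TCDD without overlap (means of 47.7 and 157 CPM, and of 449.6 and 934 CPM), and no hour of Pkm was called in PkmΔDRE. The longest transcript of Pkm has a GC content of 57.7%, and 15.3% of its exon bases overlap a predicted gene. At 8 and 96 h in WT, TCDD and vehicle libraries also differed by GC content, as given below. The part of GC content in the changes of Pkm was not tested. Cyp1a1, the AHR target enzyme, was at 1.15 and 29.2 CPM in 2 WT libraries labelled TCDD (replicate 4 of 2 h and replicate 4 of 72 h) and at 3285 and 1717 CPM in 2 labelled vehicle (replicate 1 of 48 h and replicate 3 of 96 h). Over 12233 other genes, replicate 4 of PkmΔDRE vehicle at 4 h was most like the mean of WT vehicle at 96 h (Spearman rho 0.985, against 0.779 at its labelled hour) and replicate 4 of PkmΔDRE vehicle at 96 h most like that at 4 h (0.964 against 0.778), while 68 of the 72 PkmΔDRE libraries lay within 1 time step of their label. These are called the discordant 4 h and 96 h libraries. Results that rest on these libraries are given with and without them. The sum of 5 hepatocyte markers fell from a mean of 142600 CPM at 2 h to 9013 CPM at 120 h in WT vehicle, while the sum of stellate cell markers went from 2.26 to 53.5 CPM, of bile duct markers from 79.3 to 169 CPM, of endothelial markers from 366.9 to 69.5 CPM and of macrophage markers from 155 to 29.5 CPM. A sum can hide markers that differ. In PkmΔDRE vehicle the bile duct markers Krt7 and Krt19 rose by 6.45 and 4.91 on the log2 scale from 2 to 120 h. Epcam (-1.72) and Sox9 (0.17), of the same list, were not called. Fewer hepatocytes and less RNA per hepatocyte cannot be told apart in such bulk samples, and the part of these shifts in the results below was not tested.

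The first question was how the clotting transcripts changed in culture without TCDD. All 10 fell between 2 and 120 h under both labels, from 4.62-fold for F11 to 133.6-fold for Plg in WT and from 4.31-fold for F9 to 191-fold for F10 in PkmΔDRE. A gene was called at an adjusted p under 0.05 over all genes tested and a fold change of at least 1.5, and 24.5% of all genes tested fell by this rule in WT and 22.7% in PkmΔDRE. The median log2 change of the 10 genes was -4.27 in WT, against 0.21 over all genes, and -4.60 in PkmΔDRE, against 0.24.

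**Figure D1:**
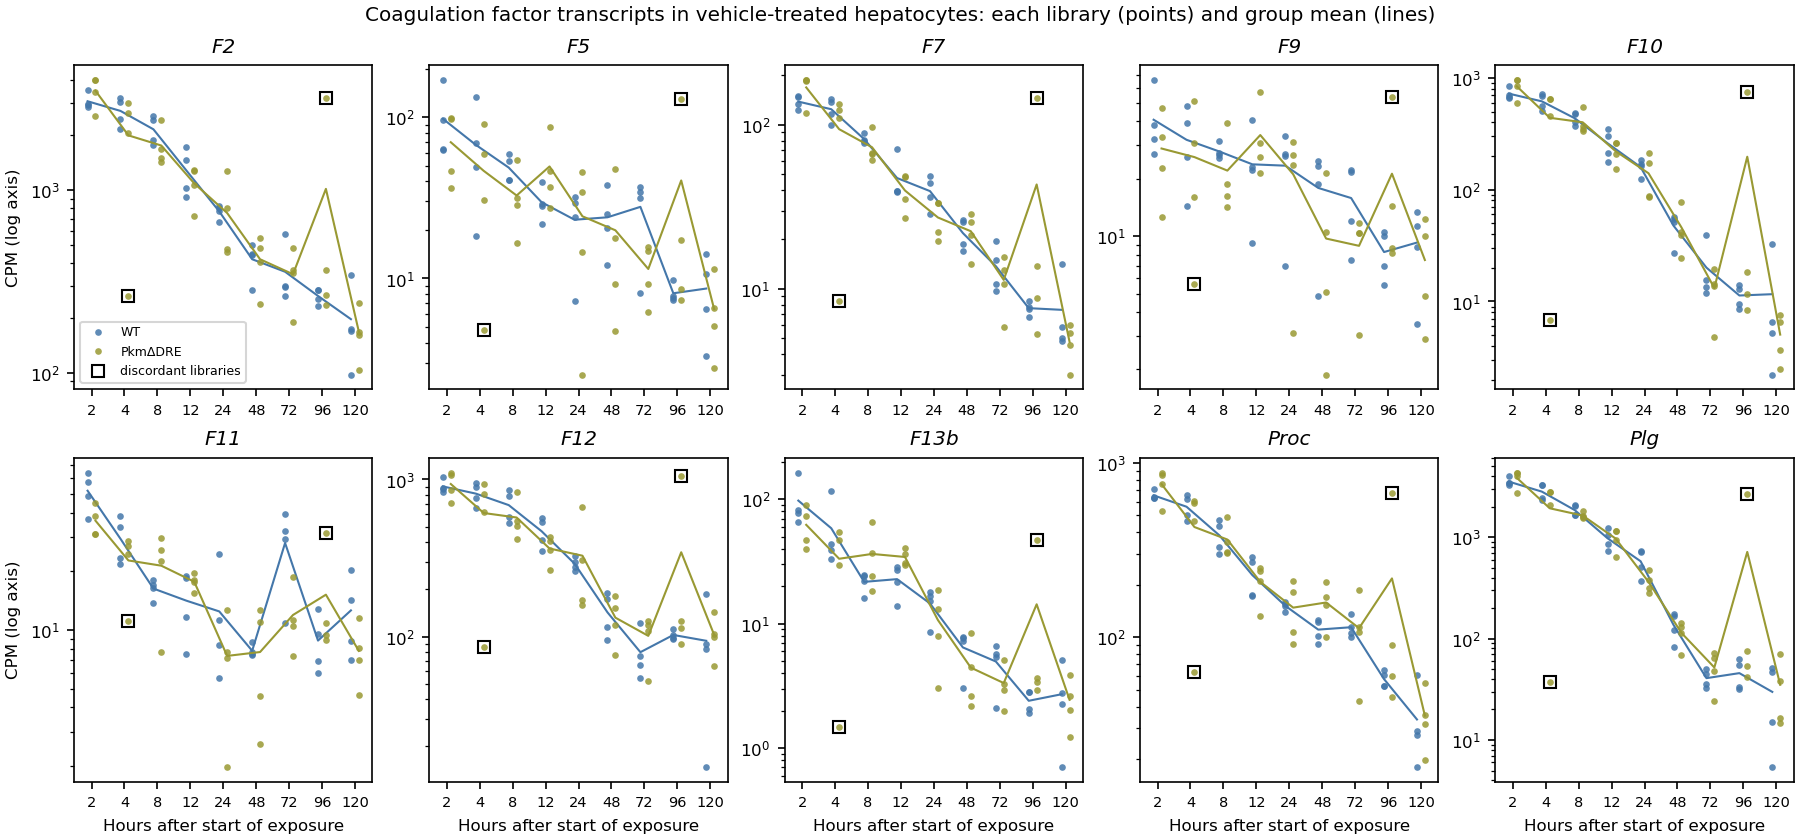
Level of each gene in vehicle-treated hepatocytes (CPM, log axis) against hours after the start of exposure; points are libraries, lines are group means and black squares mark the discordant libraries of PkmΔDRE. F2, F7, F10, F12, F13b, Proc and Plg fell over the period in both labels, F11 in WT rose again at 72 h to a mean of 27.95 CPM, and the peak of the PkmΔDRE lines at 96 h comes from the discordant library.

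Per kilobase of exon, the order at 2 h in WT vehicle was Plg, with a mean of 954 CPM per kb, then F2 (669), F12 (461), F10 (265) and Proc (263), followed by F7 (74.5), F13b (38.5), F11 (23.2), F9 (14.9) and F5 (13.1). F10 and Proc overlapped in their libraries (240 to 312 and 254 to 286 CPM per kb), as did F13b with F11, F11 with F9, and F9 with F5, while Plg, F2, F12 and F7 did not overlap their neighbours. PkmΔDRE vehicle gave the same order at 2 h. At 120 h in WT, F12 came first with a mean of 47.9 CPM per kb (7.52 to 95.7), ahead of F2 (42.8) and Proc (13.6), and Plg was at 8.04 CPM per kb, below F12 and F2 in the means, while the libraries of all neighbours in this order overlapped.

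Among the factors that start the cascade, F12, which encodes the contact protease that sets off the intrinsic arm, stood at 881, 1030, 833 and 869 CPM at 2 h in WT vehicle and at 83.5, 188, 14.7 and 89.98 CPM at 120 h. Every early library lay above every late one, and the log2 change was -3.44 ± 0.40 (SE, adjusted p = 7.94e-09, edgeR). F7, the protease that works with tissue factor, fell by 4.39 ± 0.30 on the log2 scale in WT and by 5.35 ± 0.79 in PkmΔDRE. F11, the next protease of the contact arm, had 48.6, 57.3, 64.3 and 37.3 CPM at 2 h and 7.41, 7.71, 7.50 and 8.65 CPM at 48 h, and then 29.4, 32.2, 39.4 and 10.8 CPM at 72 h, in WT vehicle. All 4 libraries of 72 h lay above those of 48 h, and the level was back to 53.9% of that at 2 h. At 96 h F11 was at 6.04 to 12.8 CPM again. In PkmΔDRE vehicle the 72 h libraries held 7.33 to 18.7 CPM of F11 and overlapped those of 48 h (2.59 to 12.7 CPM). F11 was the one gene not called from 24 to 120 h in both labels (log2 change -0.03, adjusted p = 0.959, in WT, and 0.02, adjusted p = 0.984, in PkmΔDRE).

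F9, the vitamin K-dependent protease deficient in haemophilia B, was among the slowest to fall. Its libraries held 32.1, 26.8, 65.8 and 38.2 CPM at 2 h, 33.3, 26.9, 26.4 and 6.95 CPM at 24 h and 11.3, 13.4, 3.48 and 8.82 CPM at 120 h in WT vehicle. The groups of 2 and 24 h overlapped, and the log2 change over this interval was -0.91 ± 0.47 (adjusted p = 0.106, edgeR) in WT and -0.57 ± 0.70 (adjusted p = 0.553) in PkmΔDRE. Over 2 to 120 h F9 fell by 2.29 ± 0.49 on the log2 scale in WT and by 2.11 ± 0.72 in PkmΔDRE. Without the fourth PkmΔDRE vehicle library of 120 h the second value was -1.84 and was no longer called (adjusted p = 0.0525).

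F10, which encodes the protease at the junction of both arms, and its cofactor F5 differed in how far they fell. F10 stood at 656, 852, 681 and 700 CPM at 2 h in WT vehicle, at 168, 184, 123.7 and 161 CPM at 24 h and at 5.17, 32.5, 2.22 and 6.60 CPM at 120 h. No library of one of these hours overlapped another hour, and 1.61% of the level at 2 h was left at 120 h. F5 held 62.1, 63.1, 170 and 95.6 CPM at 2 h and 10.7, 14.2, 3.29 and 6.51 CPM at 120 h, with 8.87% left. The log2 change was -6.13 ± 0.55 for F10 and -3.64 ± 0.52 for F5 in WT, and -7.58 ± 1.22 and -3.60 ± 0.90 in PkmΔDRE (edgeR, all 4 adjusted p under 0.05). Without the discordant libraries the standard error of F10 in PkmΔDRE was 0.51 and its change -7.59.

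F2, the gene of prothrombin, was at 2841 to 3563 CPM at 2 h and 97.8 to 343 CPM at 120 h in WT vehicle, a log2 change of -4.14 ± 0.31. F13b, the carrier subunit of the fibrin cross-linking enzyme, fell by 5.32 ± 0.48 and reached 0.703 to 5.10 CPM. Proc, the anticoagulant protease, fell by 4.44 ± 0.27 to a range of 18.02 to 60.7 CPM. Plg, the precursor of plasmin, had 3439, 4007, 3256 and 3464 CPM at 2 h, 719, 725, 373 and 505 CPM at 24 h and 15.1, 51.8, 5.40 and 47.1 CPM at 120 h. Its log2 change was -7.06 ± 0.49 over the whole period, and 16.4% and then 0.843% of the level at 2 h was left.

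**Figure D2:**
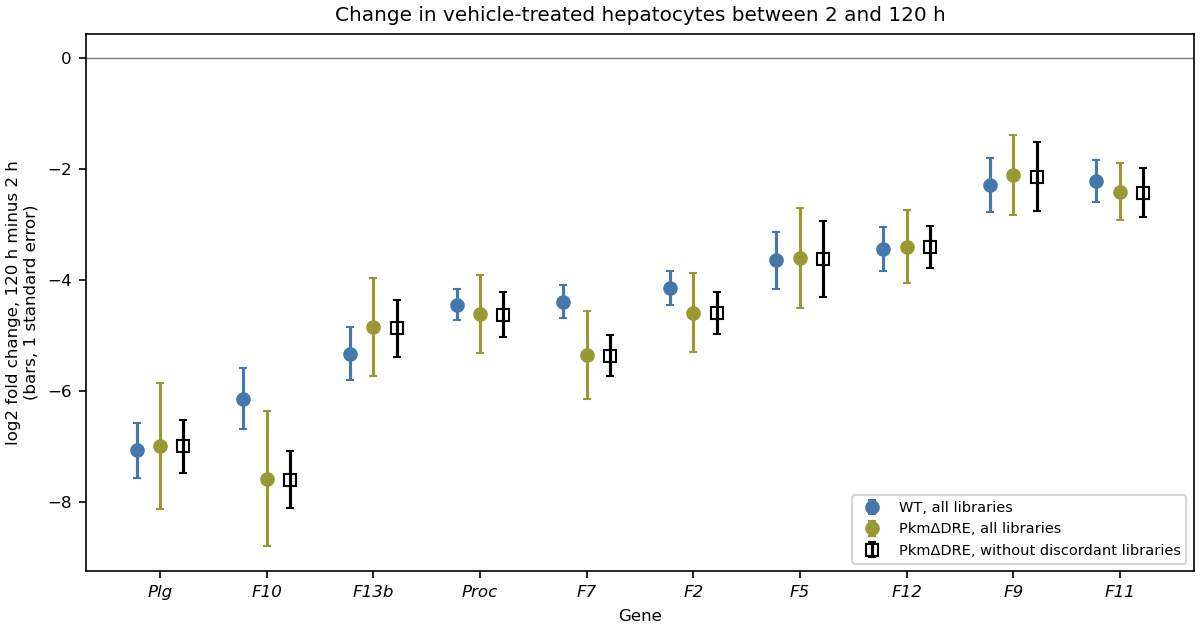
Log2 change from 2 to 120 h in vehicle-treated hepatocytes for each gene (bars, 1 standard error), for WT, PkmΔDRE and PkmΔDRE without the discordant libraries. Plg and F10 fell furthest and F9 and F11 least in both labels, and leaving out the 2 libraries shortened the bars with little shift of the points.

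Falls were called in both intervals of the period. From 2 to 24 h, 9 of the 10 genes fell in WT, all but F9, where 20% of all genes tested fell, and 8 in PkmΔDRE, all but F9 and F5, where 15.2% fell. From 24 to 120 h, 9 fell in WT, all but F11, against 18.6% of all genes, and 7 in PkmΔDRE, all but F5, F9 and F11, against 14%. Without the discordant libraries, F5 was also called in PkmΔDRE in both intervals (-1.69, adjusted p = 0.0362, and -1.93, adjusted p = 0.023, edgeR). These fits called 36.2% and 28.4% of all genes, rises and falls together, while the shares above count falls only. The calls of F10 and F12 from 2 to 24 h and of F2, F12, F13b and Proc from 24 to 120 h in PkmΔDRE, and of F5 and F9 from 24 to 120 h in WT, were lost when single libraries were left out, with log2 changes from -1.10 to -2.71 and adjusted p of 0.0501 to 0.241 in those fits. With the unmapped share of each library as a covariate, 6 of the 10 genes were called from 2 to 120 h in PkmΔDRE, 1 (F11) from 2 to 24 h and 4 from 24 to 120 h, while in WT there were 10, 9 and 9 calls. Of all genes, 15.5%, 18.9% and 16.7% were called in PkmΔDRE, in that order and in either direction. The shares in WT were 44.1%, 40.3% and 32.1%.

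Both discordant libraries stood apart for the clotting genes as well. That of 4 h held 264 CPM of F2, against 2072 to 3007 in the other 3 libraries of its group, and 37.0 CPM of Plg, against 2107 to 2803. That of 96 h held 3200 CPM of F2, against 235 to 367, 750 CPM of F10, against 8.31 to 18.5, and 2699 CPM of Plg, against 42.2 to 74.8. Without them, 73.5% of the level of F2 at 2 h was left at 4 h and 8.26% at 96 h in PkmΔDRE vehicle, where all libraries gave 56.98% and 28.99%.

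Other genes of the pathway were counted from lists of fixed members. All 6 genes of the fibrinogen and contact list fell from 2 to 120 h in both labels, among them Fgg, a fibrinogen chain, by 6.36 on the log2 scale in WT and Klkb1, the gene of plasma prekallikrein, by 5.00. Of 10 inhibitor genes 7 fell in each label, with Hrg (histidine-rich glycoprotein, -7.86 in WT) and Serpinc1 (antithrombin, -6.13 in WT) far down, and all 3 genes of the vitamin K cycle fell. Of 8 genes for starters, receptors and plasminogen activation 4 rose and 1 fell in WT and 2 rose and 1 fell in PkmΔDRE, where 33.4% and 26.8% of all genes tested rose. Plat, the tissue plasminogen activator, rose by 6.28 ± 0.72 in WT and by 4.66 ± 1.39 in PkmΔDRE, and Plgrkt, a plasminogen receptor, by 4.17 and 2.69, while Procr, the protein C receptor, fell by 2.87 and 3.45. Of 3 factors made mainly by other cells 2 were tested, and Vwf (von Willebrand factor) fell by 4.42 in WT, where the sum of endothelial markers was also lower at 120 h, as given above. In PkmΔDRE Vwf was not called (-2.44), while the mean endothelial sum went from 378.2 to 73.4 CPM.

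In vehicle, no difference between the labels was called in the 10 genes. Averaged over 2 to 12 h and over 24 to 120 h, none of the 20 differences between PkmΔDRE and WT was called by edgeR or DESeq2, and 3 had an unadjusted p under 0.05 in edgeR, those of Plg (0.76 ± 0.32), Proc (0.51 ± 0.21) and F12 (0.47 ± 0.23) in the late hours, which include the discordant 96 h library. Without the discordant libraries these were 0.004, 0.15 and 0.13. The background of calls over all genes was 1.37% in the early and 0.742% in the late hours.

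The effect of TCDD was tested at each hour against the vehicle of the same label. In WT, 12 of the 90 values were called, 8 at 8 h and 4 at 96 h. At 8 h the 10 genes split by direction, with F5, F9, F13b and F11 higher and F12, F2, F7 and Proc lower under TCDD. In these libraries 37.4% of all genes tested were called, so 8 of 10 stood against a high background, and the median log2 change of the 10 was -0.53, against 0.004 over all genes. By direction, 23.8% of all genes rose and 13.6% fell. An unadjusted p under 0.05 (edgeR) was found in 6714 of 12392 genes. The share of all genes whose groups did not overlap was not counted at this or any other hour. Markers of cell types moved as well. The sum of 5 hepatocyte markers was 70780 to 83140 CPM in vehicle and 61240 to 68940 CPM with TCDD, and that of 5 macrophage markers 110.5 to 164 and 55.5 to 97.02 CPM, both without overlap, while endothelial, stellate and bile duct sums overlapped, no marker was at 0 throughout a group, and the part of these shifts in the results was not tested.

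F5 held 40.5, 41.04, 53.7 and 59.3 CPM in the WT vehicle libraries of 8 h and 65.2, 155, 116.8 and 127.9 CPM in the TCDD libraries. The lowest TCDD library lay above the highest vehicle library, and the log2 change was 1.23 ± 0.23 (adjusted p = 0.00203, edgeR). F9 held 27.3, 26.5, 25.6 and 31.6 CPM in vehicle and 39.7, 77.6, 65.3 and 64.4 CPM with TCDD, a change of 1.12 ± 0.20 (adjusted p = 0.00159). Again the groups did not overlap, and the first TCDD library was the lowest of its group for both genes. F13b went from 16.1, 24.1, 21.9 and 24.6 CPM to 34.3, 51.8, 59.5 and 51.7 CPM (1.15 ± 0.20, adjusted p = 0.00158) and F11 from 17.1, 18.02, 16.4 and 13.7 CPM to 28.4, 35.7, 29.5 and 23.1 CPM (0.81 ± 0.19, adjusted p = 0.00534). Neither gene had overlapping groups.

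The high-GC genes went the other way in the same libraries. F2 held 2543, 2435, 1877 and 1776 CPM in vehicle and 1416, 1484, 990 and 1267 CPM with TCDD (-0.78 ± 0.18, adjusted p = 0.00471, edgeR). F12 went from 855, 788, 578 and 526 CPM to 451, 475, 271 and 377 CPM, a change of -0.84 ± 0.21 (adjusted p = 0.0066). In both genes the highest TCDD library lay below the lowest vehicle library. F7 held 88.8, 77.6, 80.8 and 80.1 CPM in vehicle and 55.6, 60.7, 37.6 and 55.03 CPM with TCDD (-0.68 ± 0.16, adjusted p = 0.00556), and Proc held 469, 435, 328 and 302 CPM and then 272, 292, 207 and 240 CPM (-0.64 ± 0.17, adjusted p = 0.0108). These groups did not overlap either, but Proc was called at a fold just over the threshold. F10 (-0.54, adjusted p under 0.05) and Plg (-0.52) changed by less than 1.5-fold. Without the third TCDD library the change of F7 was -0.55 and that of Proc -0.55, and without the first or second vehicle library that of Proc was -0.52 or -0.57, which are under the fold threshold although the adjusted p stayed at or below 0.0391.

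**Figure D3:**
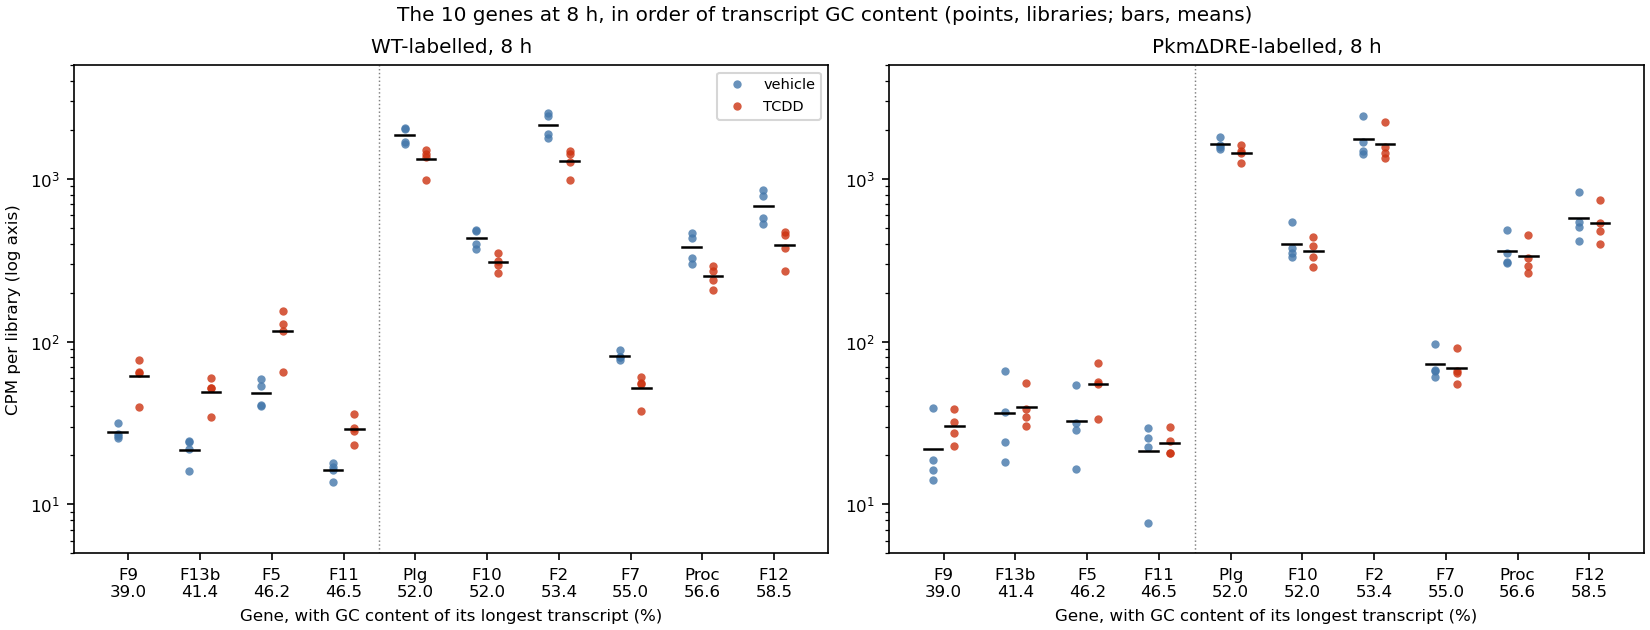
Level of the 10 genes (CPM, log axis) in the 4 vehicle and 4 TCDD libraries of 8 h under each label, in order of GC content; points are libraries and bars are means. In the WT panel the 4 genes left of the dotted line were higher with TCDD and the 6 to its right lower, and in the PkmΔDRE panel the groups of all 10 genes overlapped.

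Direction at 8 h in WT and GC content of the transcript went together in these genes. Over 12219 genes, the slope of log2 CPM on GC content, in log2 units per 10 percentage points, was 0.137 to 0.439 in the 4 WT vehicle libraries of 8 h and -0.720 to -0.176 in the 4 TCDD libraries, without overlap. Of the 18 comparisons of TCDD with vehicle, 2 had slopes that did not overlap, WT at 8 h and WT at 96 h (0.040 to 0.216 in vehicle and -0.367 to -0.178 with TCDD). Members were called at these hours, which also had the largest shares of all genes called, 37.4% and 15.1%. At both hours slope and treatment went together and cannot be told apart, and the part of GC content in the calls was not tested. When each library's trend on GC content was removed, F5 was the gene still called at 8 h (0.73 ± 0.20, adjusted p = 0.0173), and F9 stood at 0.04, F13b at 0.23, F11 at 0.34, F2 at -0.55, F12 at -0.39, F7 at -0.36 and Proc at -0.23. In that fit 21.1% of all genes were called. In 1 fit of all WT libraries with a surrogate variable, none of the 10 was called at 8 h, where 1.22% of all genes were. In it F5 (-0.82) and F9 (-1.09) changed sign. In the same fit without that variable, the falls of F2, F7, F12 and Proc were called at 8 h and the higher values of F5, F9, F11 and F13b were not (0.695 to 1.11, adjusted p from 0.0504 to 0.145, edgeR). Of all genes 28.9% were called at 8 h without that variable.

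**Figure D4:**
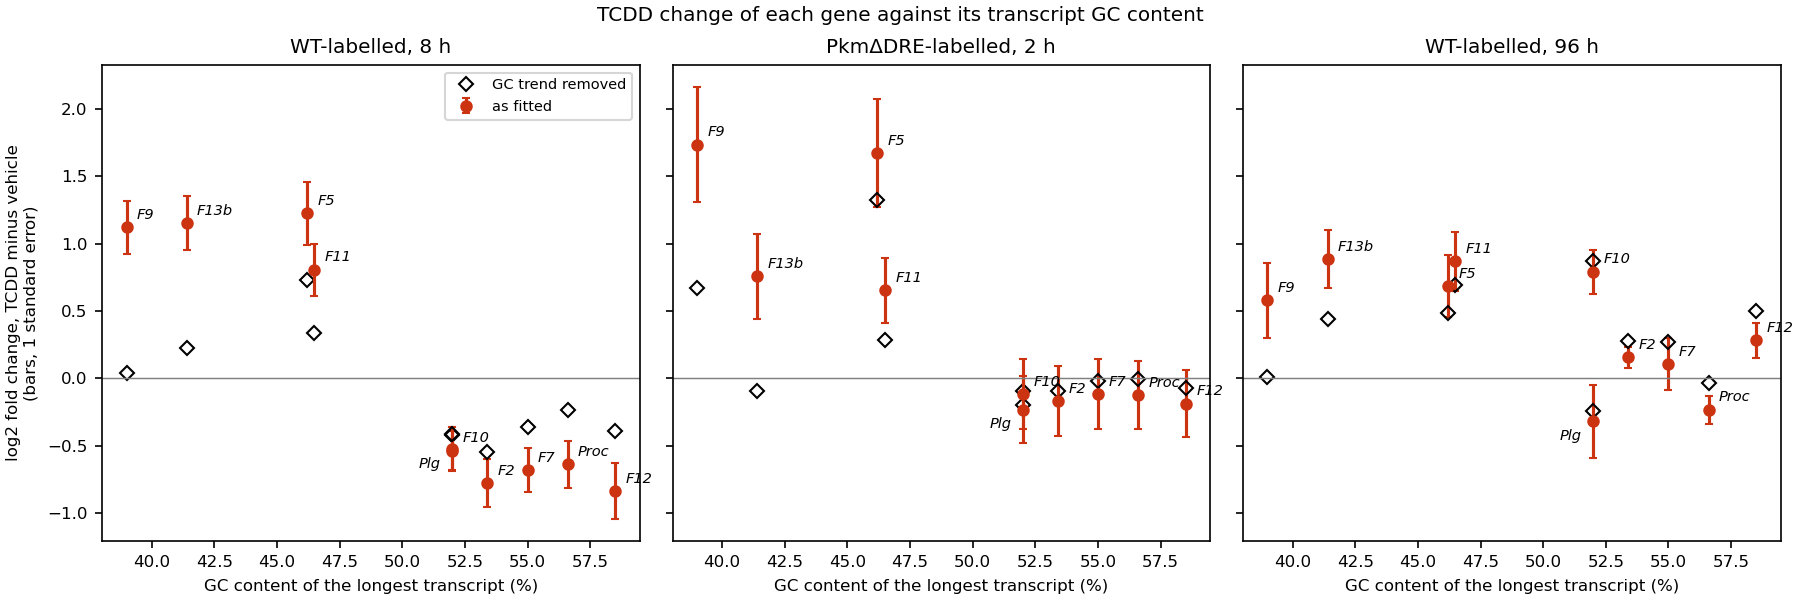
Log2 change with TCDD of each gene against the GC content of its longest transcript in 3 comparisons; filled points are the fitted values with 1 standard error, and open diamonds the values after each library's GC trend was removed. At 8 h in WT and 2 h in PkmΔDRE the 4 genes under 50% GC lay above the rest, and removal of the trend brought F9 at 8 h from 1.12 to 0.04.

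Other genes of the pathway moved in both directions at 8 h in WT. In the fibrinogen and contact list 1 of 6 rose, Klkb1 by 1.35 ± 0.36, and none fell. Of 9 inhibitor genes tested 1 rose, Pros1 (protein S, 0.82), and 3 fell, Serpina10 (-0.77), Serpinf2 (antiplasmin, -0.74) and Serpinc1 (-0.59), beside the shares of all genes given above. Vkorc1l1, a paralog of the vitamin K epoxide reductase gene, rose by 0.70, and none of 7 tested starter and receptor genes was called.

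At 96 h in WT, where 15.1% of all genes tested were called, 4 of the 10 genes rose with TCDD and none fell, against 10.1% and 5.00% of all genes. F10 held 9.50, 8.58, 14.2 and 13 CPM in vehicle and 19.7, 16.8, 17.3 and 21.3 CPM with TCDD (0.79 ± 0.16, adjusted p = 0.00462, edgeR). F11 went from 9.55, 12.8, 6.89 and 6.04 CPM to 15.9, 15.8, 15.99 and 14.4 CPM (0.87 ± 0.22, adjusted p = 0.0121), and F13b from 2.81, 1.91, 2.84 and 2.04 CPM to 4.66, 3.68, 4.31 and 4.40 CPM (0.89 ± 0.22, adjusted p = 0.0103). In these 3 genes every TCDD library lay above every vehicle library. How many of all genes did so was not counted, and 6109 of 13793 had an unadjusted p under 0.05 (edgeR). F5 held 7.53, 7.74, 9.77 and 7.35 CPM in vehicle and 18.3, 13.3, 9.11 and 9.21 CPM with TCDD, with overlap (0.69 ± 0.23, adjusted p = 0.0376), and its call was lost when vehicle replicate 1, 2 or 4 or TCDD replicate 1 or 2 was left out (log2 change down to 0.41, adjusted p up to 0.115). Without the vehicle library with high Cyp1a1 all 4 genes were still called, at 0.76 to 0.97. In 1 fit of all WT libraries none of the 4 was called (0.639 to 0.842, adjusted p from 0.332 to 0.597, edgeR), and 0.713% of all genes were called at this hour. With the GC trend removed, F10 (0.87) and F11 (0.69) were called and F13b (0.44) and F5 (0.48) were not, in a fit that called 8.69% of all genes. The sum of 4 bile duct markers was 258.8 to 300.8 CPM in vehicle and 129.9 to 148.2 CPM with TCDD at this hour, and that of 6 endothelial markers 71.5 to 81.2 and 44.02 to 62.5 CPM, both without overlap, while hepatocyte, macrophage and stellate sums overlapped, no marker was at 0 throughout a group, and their part in the results was not tested. At the same hour Klkb1 (1.58 ± 0.41), Proz (protein Z, 0.97) and Cpb2 (a carboxypeptidase that restrains fibrinolysis, 1.06) rose, and Plat (-1.23) and Plaur (the urokinase receptor, -1.02) fell.

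At the other 7 hours in WT none of the 70 values was called by edgeR, 8 had an unadjusted p under 0.05, and DESeq2 called 1. The background over all genes in edgeR was 0% (2, 4 and 72 h), 0.0321% (12 h), 0.373% (24 h), 0.00763% (48 h) and 1.46% (120 h). F5 at 2 h held 62.1, 63.1, 170 and 95.6 CPM in vehicle and 174, 325, 290 and 20.6 CPM with TCDD, and F9 held 32.1, 26.8, 65.8 and 38.2 CPM and then 88.1, 145, 123.6 and 4.91 CPM. The lowest TCDD value in both genes was that of the library with low Cyp1a1, and the other 3 lay above all vehicle libraries. The GC slope of that library was 0.831, against -0.544 to -0.292 in the other 3. The log2 change was 1.05 for F5 and 1.15 for F9 with this library, and 1.42 (adjusted p = 0.0646) and 1.54 ± 0.28 (adjusted p = 0.0533) without it. At 4 h F9 held 14.3, 39.3, 48.3 and 25.9 CPM in vehicle and 97.2, 89.3, 110 and 22.4 CPM with TCDD, and the last of these libraries also had the lowest Cyp1a1 of its group, 10.2 CPM, and a GC slope of 0.184, against -0.635 to -0.440 in the others. Plg at 120 h was the value DESeq2 called. It held 15.1, 51.8, 5.40 and 47.1 CPM in vehicle and 5.97, 4.16, 7.19 and 6.52 CPM with TCDD, with overlap (-2.33 ± 0.65, adjusted p = 0.132 in edgeR and 0.016 in DESeq2, which called 4.17% of all genes at this hour).

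**Figure D5:**
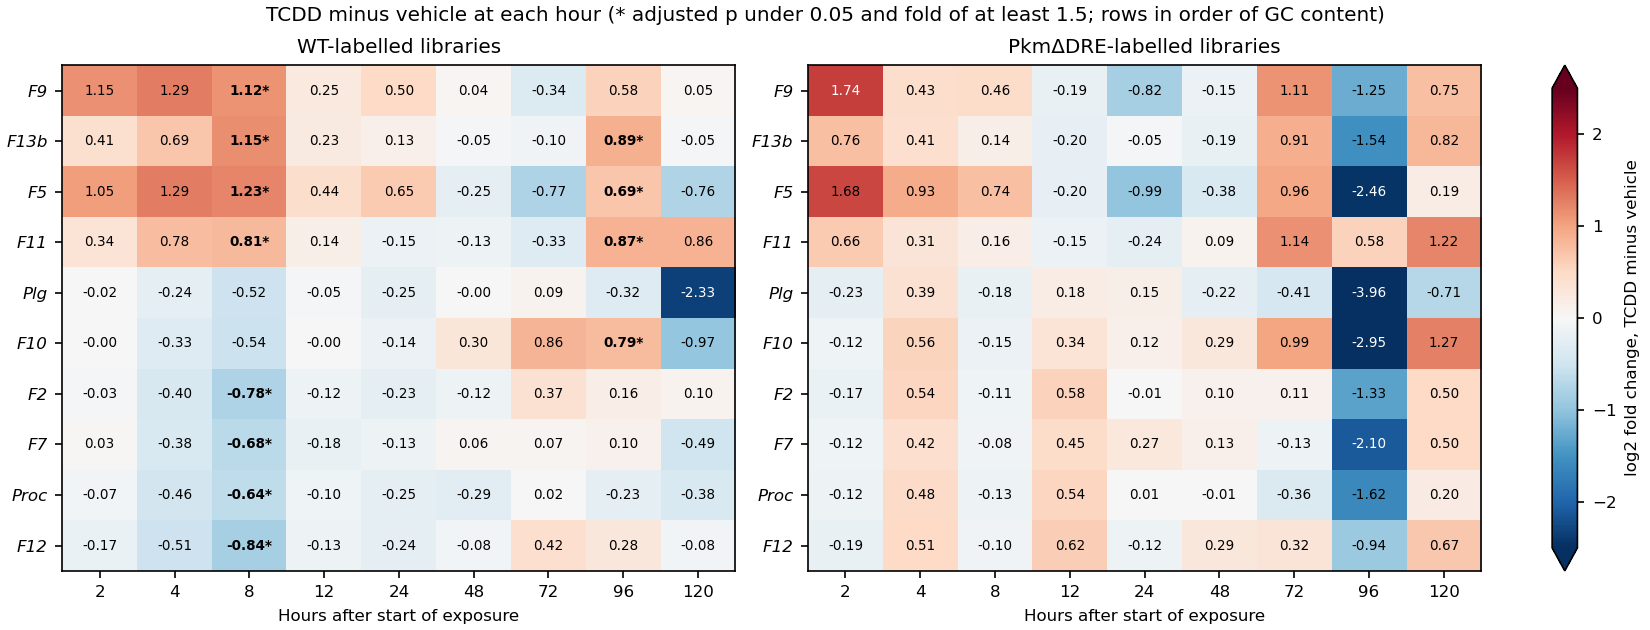
Log2 change with TCDD of each gene (rows, in order of GC content) at each hour (columns) under each label; asterisks mark called values. Calls stand at 8 and 96 h in WT, and the negative values of PkmΔDRE at 96 h, down to -3.96 for Plg, rest on the discordant library.

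In PkmΔDRE none of the 90 values by hour was called by edgeR, 14 had an unadjusted p under 0.05, and DESeq2 called 4, those of F5 and F9 at 2 h and of F10 and F11 at 120 h. In edgeR, of all genes tested 0% (2 and 4 h), 0.106% (8 h), 0.0240% (12 h), 0.0160% (24 h), 0.404% (48 h), 1.13% (72 h), 0.0793% (96 h) and 0.633% (120 h) were called, while DESeq2 called 5.18% at 2 h and 2.14% at 120 h. F5 at 2 h held 36.6, 97.6, 46.7 and 98.7 CPM in vehicle and 103.6, 276, 268 and 202 CPM with TCDD (1.68 ± 0.40, adjusted p = 0.280 in edgeR and 0.0119 in DESeq2). F9 held 22.7, 46.7, 12.6 and 33.2 CPM and then 54.6 to 138.2 CPM (1.74 ± 0.43, adjusted p = 0.280 and 0.0131). In both genes the TCDD libraries lay above all vehicle libraries. The GC slopes of these groups were -0.143 to 0.543 in vehicle and -0.760 to 0.115 with TCDD, and with the trend removed the changes were 1.32 and 0.67. At 120 h F10 went from 7.51, 6.58, 3.65 and 2.48 CPM to 11.04, 13.8, 16.5 and 8.42 CPM (1.27 ± 0.35, adjusted p = 0.227 in edgeR and 0.0418 in DESeq2) and F11 from 8.04, 7.01, 11.5 and 4.64 CPM to 25.7, 12.2, 19.2 and 16.9 CPM (1.22 ± 0.31, adjusted p = 0.166 and 0.0152), with no overlap in either gene.

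At 96 h in PkmΔDRE the result turned on the discordant library. F11 held 8.92, 10.8, 9.37 and 31.6 CPM in vehicle, the last in that library, and 18.4, 28.4, 25.5 and 24.1 CPM with TCDD, and F12 held 126.2, 89.6, 114.1 and 1046 CPM and then 226, 181, 232 and 152 CPM. With all libraries the changes were 0.585 and -0.94, and neither was called. Without the discordant libraries both were called, F11 at 1.27 ± 0.21 (adjusted p = 0.0116, edgeR) and F12 at 0.80 ± 0.18 (adjusted p = 0.047), in a fit that called 2.25% of all genes. The change of Plg moved from -3.96 to -0.17 and that of F10 from -2.95 to 1.12 (adjusted p = 0.101).

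Averages over hours used all 72 libraries of a label. Over 2 to 12 h in WT, F5 rose by 0.91 ± 0.25 (adjusted p = 0.00421, edgeR) and F9 by 0.86 ± 0.27 (adjusted p = 0.00888), and the other 8 genes were not called, where 17.8% of all genes were. Without the 4 WT libraries whose Cyp1a1 went against the label, F13b was also called, at 0.63 (adjusted p = 0.00743). With a surrogate variable in the fit the changes were -0.44 for F5 and -0.59 for F9. Over 24 to 120 h in WT none was called by edgeR or DESeq2 and 2 had an unadjusted p under 0.05 in edgeR, with 3.18% of all genes called. Plg stood at -0.58 ± 0.16 with an adjusted p of 0.013, just under the fold threshold.

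In PkmΔDRE none of the 10 was called over 2 to 12 h by either tool, with a background of 0.479%, and F5 had an unadjusted p of 0.0356 (0.70 ± 0.33). Over 24 to 120 h, where 3.48% of all genes were called, Plg was called at -0.99 ± 0.31 (adjusted p = 0.0473, edgeR), and without the discordant 96 h library it stood at -0.24 (adjusted p = 0.706). Without the discordant libraries, Plg was at -0.26 and F10 (0.77 ± 0.16, adjusted p = 0.000739) and F11 (0.72 ± 0.17, adjusted p = 0.00326) were called instead, with 4.37% of all genes. From the lists, Cpb2 (0.90 in WT, 1.27 in PkmΔDRE) rose over the late hours under both labels and Fgb, another fibrinogen chain (-0.67 and -0.70), Serpinf2 (-0.69 and -0.82) and Plat (-0.96 and -1.53) fell under both, with Fgg (-1.01) down in WT and Fga (-0.89) down in PkmΔDRE. Without the discordant libraries Cpb2 (1.40), Plat (-1.62) and Serpinf2 (-0.637) were still called in PkmΔDRE, and Fgb (-0.565) and Fga (-0.505) changed by less than 1.5-fold.

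Whether the labels differed in their response to TCDD was tested as an interaction. None of the 90 values by hour and none of the 20 averages was called by edgeR or DESeq2, and 11 and 0 had an unadjusted p under 0.05. Of all genes 0.00715% (48 h), 0.00695% (72 h) and, for the other 7 hours, 0% were called, and 0.539% and 0.117% in the early and late averages. At 8 h the difference in response, PkmΔDRE minus WT, was -1.13 ± 0.46 for F13b (adjusted p = 0.294, edgeR) and -0.60 ± 0.44 for F5. The 5 unadjusted values at 96 h, -1.83 for F9 to -3.74 for F10, include the discordant 96 h library, without which the 10 differences ran from -1.22 to 0.48.

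Across the 36 group means the 10 genes did not all follow each other. The Pearson correlation of log2(CPM + 0.5) ran from 0.468 between Plg and F11 to 0.984 between F10 and F7, which lie on the same strand of chromosome 8, and these means share culture time, GC shifts and the discordant libraries, so the values describe the groups only. The gene most like F5 and the one most like F9 were the same, Hc, the gene of complement component C5 (0.973 and 0.964). Most like F10 was Lcat and most like F12 was Vtn, the gene of vitronectin. F2 was most like Cyp27a1, F7 most like C1ra, F13b most like Ugt2a3, Proc most like Grhpr and F11 most like Ugt2b5, at 0.902. Plg was most like Itih1, Hrg and Mbl1. Of the 30 genes named by this rule, 3 for each member, 28 were named again without the discordant libraries.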

How the data were processed

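Read pairs were trimmed and aligned by the authors with Trimmomatic 0.39 and STAR 2.7 on GRCm39, per the submitters' processing notes, and the authors deposited raw counts of uniquely mapped pairs per gene, from which the unstranded count was used here. The 4 lines that name no gene held 16.8% to 48.0% of a library and were left out. Counts were scaled by TMM and tested with the robust quasi-likelihood test of edgeR 4.0.16 under R 4.3.3 after filterByExpr (count minimum of 10, total minimum of 15), with Benjamini-Hochberg adjustment over all genes tested, in which all 10 members passed the filter in every comparison. Comparisons of TCDD with vehicle used the 8 libraries of a label and hour, or all 72 of a label, changes with time the 36 vehicle libraries of a label, and the interaction 16 or all 144. DESeq2 1.42.0 gave an alternative. Printed CPM use TMM library sizes over all libraries. Gene length, GC content and exon overlaps came from the annotation provided here, and promoters from RefSeq on GRCm38.p6. Both are on a build other than that of the counts. The members and gene lists were chosen with earlier results of these data known. Named genes were the members, Pkm, Cyp1a1, the called genes of the lists and the 3 genes most alike each member. Some genes that this rule names are not reported here. Tests were checked on simulated counts. The settings without the discordant libraries were added after seeing the data.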

Additional observations from a re-analysis of the deposited data

Results flagged for a closer look

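Of 360 groups of 4 libraries, one for each gene, label, treatment and hour, 40 (11.1%) held a library whose gap to the nearest of the others as a share of the group's range exceeded Dixon's 95% critical value, where chance gives about 1 group in 20.

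PkmΔDRE vehicle 96 h replicate 4 stood apart for 10 of the 10 genes, with F2 at 3200 (others 234.9 to 367.1), F5 at 128.6 (others 7.39 to 17.43), F7 at 145.4 (others 5.291 to 13.72), F9 at 53.84 (others 8.133 to 14.32), F10 at 749.6 (others 8.308 to 18.53), F11 at 31.59 (others 8.92 to 10.8), F12 at 1046 (others 89.64 to 126.2), F13b at 47.23 (others 2.928 to 3.662), Proc at 673.5 (others 45.74 to 90.76) and Plg at 2699 (others 42.2 to 74.77) CPM. This is one of the libraries that resembled another hour. WT TCDD 2 h replicate 4 stood apart for 6 of the 10 genes, with F2 at 4291 (others 2541 to 2621), F7 at 201.6 (others 118.5 to 123.7), F10 at 1019 (others 592 to 649), F12 at 1107 (others 700.9 to 705.8), Proc at 867.1 (others 513.9 to 556.8) and Plg at 4763 (others 3018 to 3127) CPM. Its Cyp1a1 level of 1.15 CPM was among those that went against the label. WT TCDD 120 h replicate 3 stood apart for 3 of the 10 genes, with F2 at 163 (others 220.4 to 229.5), F9 at 2.166 (others 11.54 to 12.55) and F12 at 24.19 (others 109.5 to 111.5) CPM. WT vehicle 72 h replicate 3 stood apart for 2 of the 10 genes, with F2 at 573.7 (others 264.6 to 298.6) and F10 at 39.5 (others 11.83 to 15.45) CPM. WT vehicle 120 h replicate 2 stood apart for 2 of the 10 genes, with F7 at 14.11 (others 4.84 to 5.861) and F10 at 32.47 (others 2.221 to 6.603) CPM. PkmΔDRE TCDD 72 h replicate 3 stood apart for 2 of the 10 genes, with F10 at 44.38 (others 20.54 to 21.64) and Plg at 77.44 (others 24.71 to 31.44) CPM.

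The other libraries stood apart for 1 gene each. These were Proc at 709.2 CPM in WT vehicle 2 h replicate 2 (others 628.8 to 634.5), F13b at 163.8 CPM in WT vehicle 2 h replicate 3 (others 66.14 to 82.18), F13b at 117.5 CPM in WT vehicle 4 h replicate 3 (others 33.13 to 44.04), F7 at 71.45 CPM in WT vehicle 12 h replicate 4 (others 39.06 to 39.54) and F13b at 3.032 CPM in WT vehicle 48 h replicate 3 (others 7.232 to 7.835). Further values were F5 at 9.767 CPM in WT vehicle 96 h replicate 3 (others 7.347 to 7.744), Proc at 484.8 CPM in WT TCDD 4 h replicate 2 (others 393.4 to 405.4), F2 at 521.1 CPM in WT TCDD 48 h replicate 2 (others 316.4 to 334.2), F11 at 14.25 CPM in WT TCDD 48 h replicate 3 (others 4.077 to 5.354) and F5 at 26.15 CPM in WT TCDD 72 h replicate 1 (others 11.58 to 13.9). The remaining values were F11 at 14.41 CPM in WT TCDD 96 h replicate 4 (others 15.79 to 15.99), F7 at 117.7 CPM in PkmΔDRE vehicle 2 h replicate 2 (others 183.8 to 187.6), F9 at 3.018 CPM in PkmΔDRE vehicle 72 h replicate 3 (others 10.4 to 11.71), F2 at 609.8 CPM in PkmΔDRE TCDD 24 h replicate 2 (others 821.2 to 860.2) and F12 at 251.8 CPM in PkmΔDRE TCDD 48 h replicate 1 (others 137.1 to 156.6).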

How the results depend on the processing

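No paired analysis was possible because the labels give no replicate number that libraries of different groups share. For TCDD against vehicle by hour in WT, 12 member values were called, 5 in 1 fit of the label, 1 with a surrogate variable added to that fit and 3 with the GC trend removed. Of all genes, these alternatives called 28.9%, 1.22% and 21.1% at 8 h, against 37.4% in the main fit. At 96 h they called 0.713%, 0.576% and 8.69%, against 15.1%. The fit of the label called 0.647% at 120 h, and 1.02% with the surrogate variable. The 5 were the falls of F2, F7, F12 and Proc at 8 h and Plg at 120 h, and the 1 was Plg at 120 h, which is not among the 12, so the 8 rises lost their call in both fits. In PkmΔDRE none was called, against 4 in 1 fit of the label, 5 with a surrogate variable, 4 with DESeq2, 8 without the filter on low counts, 6 with the unmapped share as a covariate and 2 without the discordant libraries. The 4 and 5 of the fits of the label were falls at 96 h and include the discordant library, and the 6 with the unmapped share were rises at 96 h. Of all genes at 96 h, these fits called 3.01%, 4.03% and 6.09%, in that order, against 0.0793% in the main fit. Without the filter the shares by hour ran from 0% at 4 h to 4.3% at 2 h. Without the discordant libraries 2.25% were called at 96 h, and the shares of DESeq2 are given above. Of the averages over hours, 2 were called in WT, against 8 without the fold threshold, 0 with a surrogate variable, 1 with the GC trend removed and 0 with the portion of pairs outside genes as covariate, and 1 in PkmΔDRE, against 0 without the filter, 4 with the portion outside genes and 2 without the discordant libraries. In the early WT average, 6458 of 16838 genes passed without the fold threshold. The other settings there called 0.808%, 9.41% and 5.37% of all genes, in that order, against 17.8% in the main fit. In the late PkmΔDRE average the shares were 1.36%, 12.2% and 4.37%, in that order, against 3.48%. With the portion outside genes, 0.71% were called in the early PkmΔDRE average. Of the changes between hours, 25 were called in PkmΔDRE, against 11 with the unmapped share, where 15.5% to 18.9% of all genes were called. One fit of all libraries called 2 differences in response, where separate fits called 0, and both were at 96 h, with the discordant library included. That fit called 0.923% of all genes at 96 h. Leaving out each library in turn gave 10 to 14 calls by hour in WT, 0 to 2 in PkmΔDRE, 2 to 3 and 0 to 2 for the averages, 26 to 28 and 21 to 26 between hours, and 0 for the differences between labels. The shares of all genes called in these fits were not recorded. In the main fits of WT they were 37.4% at 8 h and 15.1% at 96 h, the hours of all 12 calls. The fits of TCDD by hour and of differences in response by hour were repeated in full. Those of averages over hours, of changes between hours and of labels in vehicle kept the genes and the dispersion trend of the full fit.

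With a surrogate variable the sign changed for F5 (-0.82) and F9 (-1.09) at 8 h and F5 (-0.17) at 96 h in WT, and for F5 (-0.44) and F9 (-0.59) in the early WT average. With the unmapped share as a covariate, Plg in the late PkmΔDRE average was at 0.093. The cause was not tested. Of 2768 alternative values for called members, 2590 kept their direction and call, 6 changed sign and the rest lost the call. This total pools the changes between hours with the effects of TCDD, and counts each fit without a library as a value. It does not give the stability of the TCDD calls, whose counts under each alternative are given above. With 4 libraries a group and 1 library in some groups against its label, differences smaller than the spread between libraries were not detectable.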
